A study of Caenorhabditis elegans with 4 samples.

Results

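The transcriptome of whole Caenorhabditis elegans was compared between day 4 and day 13 of adulthood in animals that had grown and aged on Bacillus subtilis PY79, a soil bacterium given in place of the usual laboratory food. Animals were of the wild-type strain N2. For each library, a large synchronized population was raised on PY79 from the first larval stage, washed over nylon mesh every other day from day 2, and collected whole at 1 of the 2 ages. One biological sample was sequenced at each age, so there is 1 library per group, and 2 libraries of the same ages on Escherichia coli OP50 stand beside them. Each gene was represented by its transcript with most reads, and the 6132 of 17096 genes with at least 10 reads at either age on PY79 were described. Whether these animals received FUDR, which blocks progeny, is stated only for the aging transcriptomes of the study in general.

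An adult hermaphrodite holds a small number of large tissues with distinct transcripts. The intestine digests bacteria, secretes antibacterial proteins and makes yolk for the oocytes, the epidermis builds the collagen cuticle and makes antimicrobial peptides, body wall muscle moves the animal, and the gonad holds germ cells, sperm and oocytes. The GATA transcription factor ELT-2 acts in the intestine and switches on many of its digestive and defence genes. In a whole-animal library, fewer cells of a type and less RNA per cell cannot be told apart.

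The libraries held 4838114 reads at day 4 and 4469802 reads at day 13 in the chosen transcripts. At least 10 reads were found for 5480 genes at day 4 and for 5514 at day 13, and 4862 genes reached this number at both ages. The 10 genes with most reads took 20.96% of the reads at day 4 and 20.4% at day 13. All tissues named above were sampled, with 10 of 17 intestine markers, 23 of 28 body wall muscle genes and 59 of 64 oocyte and germline genes among the genes described, whereas only 2 of 13 neuron markers were deep enough. Libraries were scaled by TMM, a trimmed mean of log ratios over all 4 libraries. This sets changes relative to the bulk of genes in the 4 libraries together, not in the PY79 pair alone. At day 13 a gene counted as higher or lower if the ratio of its scaled reads was 2-fold or more and the exact 95% Clopper-Pearson interval of that ratio, given after each fold, excluded 1. The intervals cover counting error only, since reads are not independent molecules and nothing measures the spread between animals, and a ratio of 2 libraries compares those libraries, not the ages. Of the counted genes below, 174 of the higher and 240 of the lower overlap another gene on either strand, and since no source used here gives the strand setting of the counting, their reads cannot be told apart from those of the partner. Such genes are marked as overlapping. Where a library held 0 reads, the fold is a lower bound against a floor of 3 reads in that library.

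Of the 6132 genes, 539 (8.79%) were higher at day 13 and 678 (11.1%) were lower. The median log2 ratio over all 6132 genes was -0.18, with quartiles of -0.62 and 0.35. At least 4-fold differences were held by 282 of the higher and 269 of the lower genes, and at least 10-fold differences by 131 and 107. The balance of the directions rested on the scaling. When libraries were scaled by total reads instead, the median ratio was shifted by 0.22, 726 genes (11.8%) were higher and 445 (7.26%) lower, and the higher share of the counted genes went from 44.3% to 62%. TMM on the PY79 pair alone gave a median of -0.01, with 672 higher and 506 lower genes. DESeq2 size factors gave 592 higher and 612 lower genes. All 539 higher genes, and 445 of the 678 lower ones, kept their direction and their count under each of the scalings tried. Each of these scalings moved the ratios upward, by 0.07 to 0.22 in the median. No higher call could therefore be lost, and the higher genes were not put to a test by them. Counted genes were found at every depth. Among the 1555 genes with fewer than 30 reads in the pair 10.7% were higher and 12.7% lower, and among the 399 genes with at least 1000 reads these shares were 10.5% and 14.5%.

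**Figure D1:**
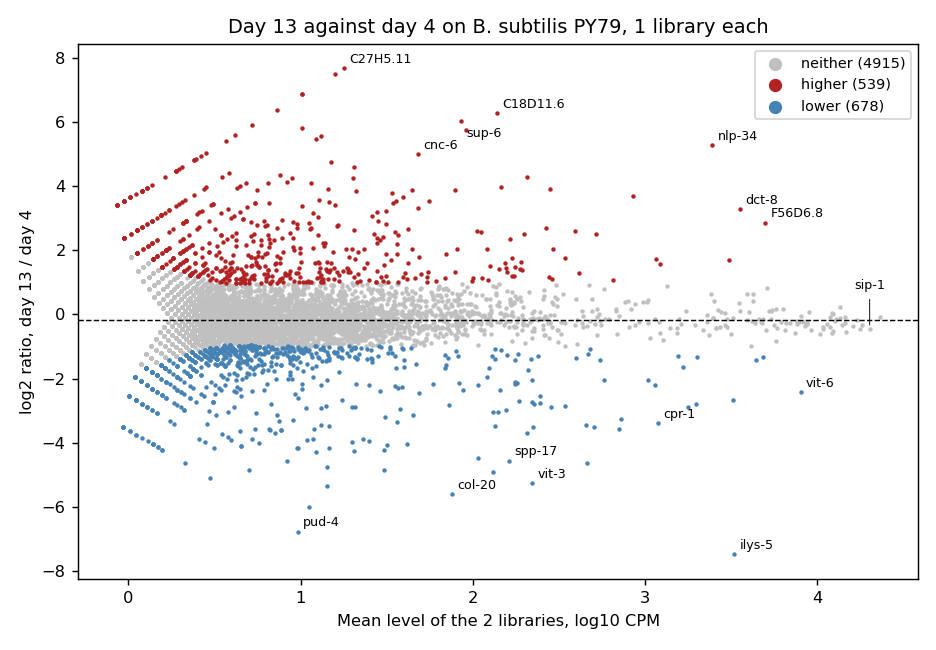
Each point is 1 of 6132 genes, with the mean level of the 2 PY79 libraries on the x axis (log10 CPM, reads per 1000000 of the scaled library) and the log2 ratio of day 13 to day 4 on the y axis. The 539 higher genes are red, the 678 lower genes blue, the rest grey, and the dashed line at -0.18 is the median of all genes; the diagonal rows of points at the left come from genes with 0 or few reads in 1 library.

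The genes with the largest differences were of several kinds. Among the 15 higher genes with the largest fold by the bound of the interval nearest to 1 were RNAs that normally carry no poly(A) tail, peptides of the epidermis and several uncharacterized proteins. The caenacin cnc-6 (Y46E12A.1), an antimicrobial peptide of the epidermis, had 15 reads at day 4 against 547 at day 13 (33.7-fold higher, 20.2 to 60.6). clx-1 (C50F7.2), named for its likeness to collagens, had 0 reads at day 4 against 85 at day 13 (at least 26.2-fold higher). The uncharacterized F16B4.7 had 108 reads at day 4 against 2294 at day 13 (19.6-fold higher, 16.2 to 24.01). Y39H10A.1 had 2 reads at day 4 against 151 at day 13 (69.7-fold higher, 18.96 to 581), and F10D7.3 had 0 reads at day 4 against 61 at day 13 (at least 18.8-fold higher). Apart from F16B4.7, these genes had at most 15 reads at day 4.

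The 15 lower genes with the largest fold included 3 yolk protein genes, 4 cuticle collagens and 2 lysozymes. fipr-17 (Y48A6B.4), named for its likeness to peptides induced by fungal infection, had 321 reads at day 4 against 11 at day 13 (31.6-fold lower, 17.4 to 63.97). F46F2.3, an uncharacterized gene, had 211 reads at day 4 against 11 at day 13 (20.8-fold lower, 11.4 to 42.3). Genes with at least 10 reads at 1 age and none at the other numbered 21 for day 4 alone and 40 for day 13 alone. At day 4 alone they included clec-53 (T03F1.10), a C-type lectin, with 23 reads at day 4 against 0 at day 13 (at least 8.31-fold lower). The stearoyl-CoA desaturase fat-7 (F10D2.9), which introduces the first double bond into stearic acid, had 17 reads at day 4 against 0 at day 13 (at least 6.14-fold lower). The peptide transporter pept-1 (K04E7.2) of the intestine had 11 reads at day 4 against 0 at day 13 (at least 3.97-fold lower). It was 1 of 2 lower genes among the 10 intestine markers described, of which 0 were higher and 8 neither, with a median of -0.58. The other was the cathepsin cpr-6 (C25B8.3), with 1025 reads at day 4 against 346 at day 13 (3.21-fold lower, 2.84 to 3.64). Among the markers that were not counted, the esterase gene ges-1 (R12A1.4) had 12 reads at day 4 against 4 at day 13 (3.25-fold lower, 0.985 to 13.8) and the intestinal actin act-5 (T25C8.2) had 13 reads at day 4 against 12 at day 13 (1.17-fold lower, 0.494 to 2.81).

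**Figure D2:**
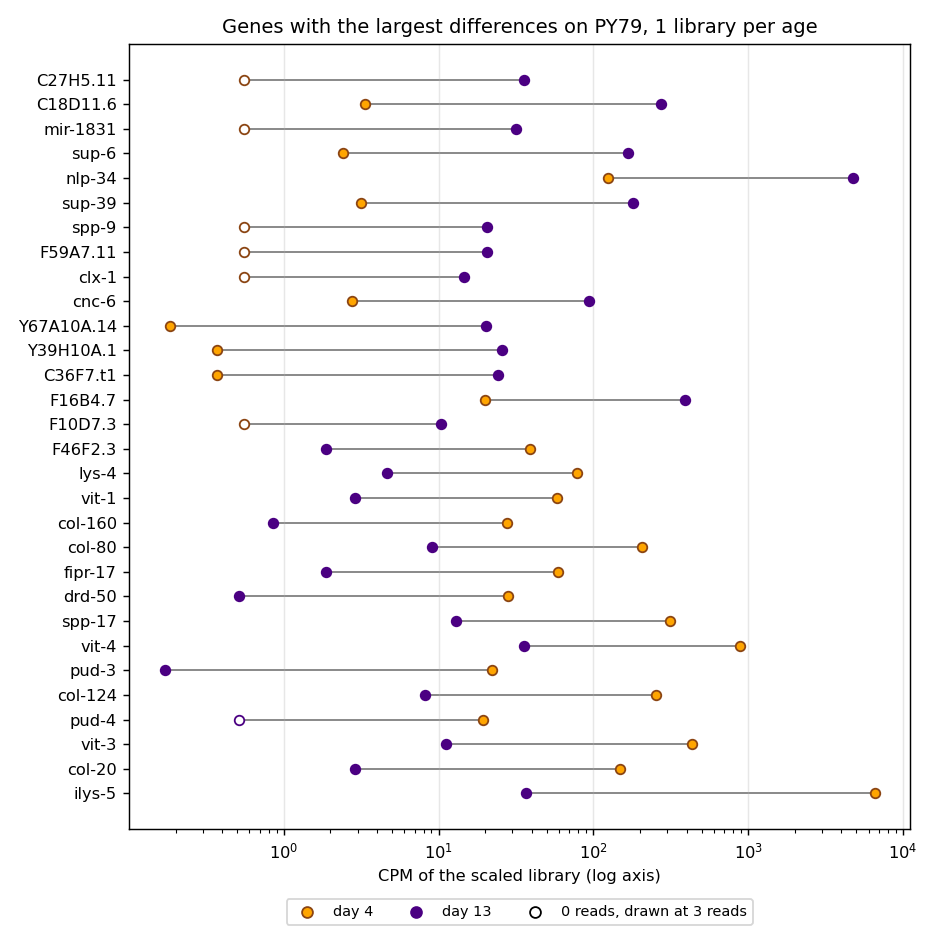
For the 15 higher and the 15 lower genes with the largest difference, the level at day 4 (orange) and at day 13 (purple) on PY79 is given in CPM of the scaled library on a log axis, with 1 library per age and open circles for 0 reads drawn at the floor of 3 reads. The lysozyme ilys-5 spans the widest range among the lower genes and the peptide gene nlp-34 reaches the highest level among the higher ones.

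Yolk protein genes were lower without exception. All 6 vitellogenin genes, whose products are made in the intestine and taken up by oocytes, were counted as lower, also with total reads, and their median log2 ratio was -3.56 against -0.18 over all genes. Together they took 2.04% of the reads at day 4 and 0.398% at day 13. vit-4 (F59D8.2, overlapping) had 4810 reads at day 4 against 209 at day 13 (24.9-fold lower, 21.7 to 28.8). vit-1 (K09F5.2) had 314 reads at day 4 against 17 at day 13 (20.01-fold lower, 12.3 to 34.8), and vit-5 (C04F6.1) had 1730 reads at day 4 against 287 at day 13 (6.53-fold lower, 5.76 to 7.42). The members differed in extent, from the -2.42 of vit-6 to the -5.26 of vit-3 on the log2 scale. The most abundant member, vit-6, went from 72761 to 14743 reads, the largest difference in reads of any gene.

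Proteases of the cathepsin and aspartyl families, taken by name and not by tissue or role, were lower in the main. Of 18 described, 13 were lower, 2 higher and 3 neither, and the share of the reads of the list went from 0.512% to 0.126%. The aspartyl protease family asp was lower in 7 of 8 cases. asp-14 (K10C2.3) had 53 reads at day 4 against 1 at day 13 (57.4-fold lower, 9.87 to 2310.1), and asp-1 (Y39B6A.20), a protease of the intestine, had 1549 reads at day 4 against 368 at day 13 (4.56-fold lower, 4.07 to 5.12). The remaining member, asp-6 (F21F8.7), had 837 reads at day 4 against 776 at day 13 (1.17-fold lower, 1.06 to 1.29), which was not counted. Among the cathepsin B-like cpr genes 5 of 7 were lower, such as cpr-9 (F57F5.1) with 1550 reads at day 4 against 385 at day 13 (4.36-fold lower, 3.90 to 4.89), and cpr-2 and cpr-3 (T10H4.12) were higher, the latter with 15 reads at day 4 against 39 at day 13 (2.4-fold higher, 1.29 to 4.69). The cathepsin L cpl-1 (T03E6.7) had 995 reads at day 4 against 441 at day 13 (2.44-fold lower, 2.18 to 2.74). Also not counted was cpz-2 (M04G12.2, overlapping), with 240 reads at day 4 against 266 at day 13 (1.02-fold higher, 0.856 to 1.22). Outside the list, ctsa-1.2 (F13D12.6, overlapping), named for cathepsin A and chosen after its values were seen, had 4999 reads at day 4 against 477 at day 13 (11.4-fold lower, 10.3 to 12.5).

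Secreted antibacterial proteins of the gut followed the same direction. Lysozymes, which cleave the peptidoglycan wall of bacteria, numbered 10, of which 7 were lower, 1 higher and 2 neither. Of the 6 lys genes 5 were lower: lys-4 (F58B3.1) had 424 reads at day 4 against 27 at day 13 (17.01-fold lower, 11.5 to 26.1), lys-10 (F17E9.11) had 99 reads at day 4 against 5 at day 13 (21.4-fold lower, 8.89 to 67.5) and lys-8 (C17G10.5, overlapping) had 347 reads at day 4 against 77 at day 13 (4.88-fold lower, 3.804 to 6.33). The exception was lys-7 (C02A12.4), a lysozyme known as a target of the insulin pathway, with 1760 reads at day 4 against 3604 at day 13 (1.89-fold higher, 1.79 to 2.002), which passed 2-fold with total reads but not with TMM. The single higher member was ilys-6 (W03D2.7), with 0 reads at day 4 against 22 at day 13 (at least 6.77-fold higher). The whole group went from 1.92% to 0.714% of the reads, and most of that difference lay in ilys-5 and ilys-2, while ilys-3, the neighbour of ilys-2 in the genome, stood at 24005 and 22691 reads. The family was thus not uniform, with log2 ratios between -7.48 and 4.47.

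Saposin-like proteins, some of which form pores in bacterial membranes, were lower in 9 of 15 cases and higher in 2, with a median of -2.13. spp-8 (C28C12.5) had 1272 reads at day 4 against 165 at day 13 (8.35-fold lower, 7.10 to 9.88). spp-1 (T07C4.4, overlapping), an antibacterial peptide of the intestine, had 1587 reads at day 4 against 392 at day 13 (4.39-fold lower, 3.92 to 4.91), and spp-18 (F27C8.4) had 74 reads at day 4 against 7 at day 13 (11.5-fold lower, 5.29 to 29.5). The member with most reads, spp-14 (K09F5.3), had 7162 reads at day 4 against 4694 at day 13 (1.65-fold lower, 1.59 to 1.72) and was not counted. Against the direction of the family, spp-9 was higher and so was spp-12 (T22G5.7), with 4 reads at day 4 against 44 at day 13 (10.2-fold higher, 3.70 to 38.9). C-type lectins, a large family of secreted carbohydrate-binding proteins, were lower in 18 of 31 cases, 58.1% against 11.1% of all genes. With total reads 14 of them were lower. Among the lower ones clec-52 (B0218.8) had 78 reads at day 4 against 6 at day 13 (14.1-fold lower, 6.19 to 39.5) and clec-49 (W04E12.6) had 54 reads at day 4 against 6 at day 13 (9.75-fold lower, 4.20 to 27.7). The lectins counted as higher were clec-146 (Y48E1B.9), with 48 reads at day 4 against 272 at day 13 (5.23-fold higher, 3.84 to 7.27), and clec-266 (C25B8.4, overlapping), with 13 reads at day 4 against 52 at day 13 (3.69-fold higher, 1.98 to 7.39). Among lectins with at least 10 reads at both ages, 16 in number, the median was -0.64 in place of -1.38.

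Genes known for their response to infection divided. Of 13 described, 3 were higher, 5 lower and 5 neither, and the median of -0.11 was near that of all genes. On the lower side stood irg-3 (F53E10.4), an infection response gene, with 1358 reads at day 4 against 178 at day 13 (8.26-fold lower, 7.06 to 9.72), and irg-4 (F08G5.6) with 17 reads at day 4 against 0 at day 13 (at least 6.14-fold lower). On the higher side stood pals-26 (B0284.1, overlapping), of a family induced by intracellular infection, with 4 reads at day 4 against 100 at day 13 (23.1-fold higher, 8.74 to 86.3). irg-2 (C49G7.5) had 4 reads at day 4 against 42 at day 13 (9.69-fold higher, 3.52 to 37.2), and dod-19 (ZK6.10) had 583 reads at day 4 against 1638 at day 13 (2.59-fold higher, 2.36 to 2.86). The transcription factor zip-2 (K02F3.4, overlapping), which acts in the response to pathogens, had 355 reads at day 4 against 570 at day 13 (1.48-fold higher, 1.30 to 1.70) and was not counted.

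The study asks about elt-2, the intestinal GATA factor, but its own transcript was too shallow on this food to be followed. elt-2 (C33D3.1) had 10 reads at day 4 against 7 at day 13, 1.55-fold lower with an interval of the fold from 0.532 to 4.79, so that a difference was not detectable at this depth. The genes that the study classed by their response to elt-2 RNAi in larvae were described instead, and only their membership was used. Of the class General Intestinal, regulated at both larval stages tested, 62 of 102 genes were described and 39 were lower, 4 higher and 19 neither, with a median of -2.02. Of Intestinal Establishment genes, regulated in the first larval stage, 24 of 48 were lower and 7 higher, with a median of -0.98. Of Adult Function genes, regulated in the last larval stage, 6 of 22 were lower and 5 higher, with a median of -0.93. In each class the genes with at least 10 reads at both ages had medians closer to 0, -1.21 over 33 General Intestinal, -0.70 over 40 Intestinal Establishment and -0.14 over 11 Adult Function genes. With total reads 5 Adult Function genes were higher and 4 lower, so that the balance of this class turned with the scaling. With every gene of the other groups left out, 20 of 36 General Intestinal, 15 of 25 Intestinal Establishment and 6 of 14 Adult Function genes were lower.

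Among the General Intestinal genes outside the groups above, T21H3.1 had 2716 reads at day 4 against 393 at day 13 (7.49-fold lower, 6.73 to 8.34). C14C6.5 had 2316 reads at day 4 against 368 at day 13 (6.82-fold lower, 6.11 to 7.63). The alcohol dehydrogenase adh-1 (K12G11.3, overlapping) had 47 reads at day 4 against 2 at day 13 (25.5-fold lower, 6.67 to 216). The class also held genes that were higher, among them the metallothionein mtl-1 (K11G9.6), which binds metals, with 2909 reads at day 4 against 10328 at day 13 (3.28-fold higher, 3.14 to 3.42), and C50F7.5, with 291 reads at day 4 against 1598 at day 13 (5.07-fold higher, 4.47 to 5.76). The other metallothionein mtl-2 (T08G5.10) had 7836 reads at day 4 against 5722 at day 13 (1.48-fold lower, 1.43 to 1.54) and was not counted. Among Intestinal Establishment genes F53A9.8 had 3086 reads at day 4 against 1311 at day 13 (2.55-fold lower, 2.39 to 2.72), and nspg-8 (Y119D3B.13) had 1732 reads at day 4 against 560 at day 13 (3.35-fold lower, 3.04 to 3.69). The acid ceramidase asah-1 (K11D2.2), which breaks down ceramide, had 363 reads at day 4 against 50 at day 13 (7.86-fold lower, 5.84 to 10.8). Among Adult Function genes F53B2.8 had 55 reads at day 4 against 356 at day 13 (5.97-fold higher, 4.49 to 8.09), and the inositol transporter hmit-1.1 (Y51A2D.4) had 15 reads at day 4 against 0 at day 13 (at least 5.42-fold lower).

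Fatty acid synthesis was lower at most of the steps measured. Of 12 desaturases, elongases and synthases 9 were lower, 0 higher and 3 neither, with a median of -1.63 (7 lower and a median of -1.40 with total reads). Over the 9 genes with at least 10 reads at both ages the median was -1.14. The desaturases fat-1, fat-2, fat-3 and fat-4, which make polyunsaturated fatty acids, were lower with TMM, and the call of fat-3 was lost with total reads and with TMM on the PY79 pair. fat-1 (Y67H2A.8), the omega-3 desaturase, had 141 reads at day 4 against 43 at day 13 (3.55-fold lower, 2.51 to 5.12). fat-3 (W08D2.4), the delta-6 desaturase, had 74 reads at day 4 against 36 at day 13 (2.23-fold lower, 1.48 to 3.41), and fat-4 (T13F2.1), the delta-5 desaturase, had 37 reads at day 4 against 14 at day 13 (2.86-fold lower, 1.51 to 5.73). The elongases of branched-chain and other fatty acids included larger folds. elo-6 (F41H10.8) had 127 reads at day 4 against 6 at day 13 (22.9-fold lower, 10.2 to 63.7), and elo-2 (F11E6.5) had 66 reads at day 4 against 5 at day 13 (14.3-fold lower, 5.83 to 45.5). The palmitate desaturase fat-5 (W06D12.3, overlapping) had 54 reads at day 4 against 92 at day 13 (1.57-fold higher, 1.11 to 2.24) and acetyl-CoA carboxylase pod-2 (W09B6.1, overlapping) had 57 reads at day 4 against 45 at day 13 (1.37-fold lower, 0.912 to 2.08), and neither was counted.

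Fat breakdown was less uniform, with 7 of 28 genes lower, 1 higher and a median of -0.45. Lysosomal lipases stood out within it. Besides lipl-5, lipl-2 (F46B6.8) had 59 reads at day 4 against 3 at day 13 (21.3-fold lower, 6.94 to 106) and lipl-1 (F54F3.3) had 39 reads at day 4 against 2 at day 13 (21.1-fold lower, 5.47 to 181). The enoyl-CoA hydratase ech-7 (Y105E8A.4), of beta-oxidation, had 254 reads at day 4 against 17 at day 13 (16.2-fold lower, 9.91 to 28.2), and the peroxisomal oxidase acox-3 (F58F9.7) had 110 reads at day 4 against 49 at day 13 (2.43-fold lower, 1.72 to 3.48). The higher member was the acyl-CoA synthetase acs-10 (AH10.1), with 3 reads at day 4 against 62 at day 13 (19.1-fold higher, 6.23 to 95.02). Proteins that carry fatty acids and retinol were higher in 3 and lower in 3 of 13 cases, 23.1% each against 8.79% and 11.1% of all genes. far-2 (F02A9.3) had 1388 reads at day 4 against 640 at day 13 (2.35-fold lower, 2.14 to 2.58) and far-6 (W02A2.2) had 54 reads at day 4 against 138 at day 13 (2.36-fold higher, 1.71 to 3.29), while far-1 (F02A9.2) with 3063 reads at day 4 against 2714 at day 13 (1.22-fold lower, 1.16 to 1.29) and lbp-9 (Y40B10A.1, overlapping) with 3524 reads at day 4 against 4078 at day 13 (1.07-fold higher, 1.02 to 1.12) were not counted. In the methionine cycle the S-adenosylmethionine synthetase sams-1 (C49F5.1) had 30 reads at day 4 against 10 at day 13 (3.25-fold lower, 1.55 to 7.45), and the cystathionine beta-synthase cbs-2 (F54A3.4, overlapping) had 3 reads at day 4 against 37 at day 13 (11.4-fold higher, 3.60 to 57.7).

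Glutathione transferases, which conjugate foreign compounds, were lower in 7 of 16 cases and higher in 0. Most rest on few reads: gst-24 (F37B1.1) had 3543 reads at day 4 against 1615 at day 13 (2.38-fold lower, 2.24 to 2.52), but the 6 other lower members had at most 22 reads at day 4, such as gst-4 (K08F4.7, overlapping) with 11 reads at day 4 against 1 at day 13 (11.9-fold lower, 1.73 to 513). The median over the 7 with at least 10 reads at both ages was -0.52, and over all described -1.18. Cytochrome P450, UDP-glucuronosyltransferase and short-chain dehydrogenase genes were lower in 7 and higher in 2 of 30 cases. That is 23.3% and 6.67%, against 11.1% and 8.79% of all genes. With total reads 5 were lower and 4 higher, so that the balance rested on the scaling. The dehydrogenase dhs-26 (ZK816.5, overlapping) had 1701 reads at day 4 against 704 at day 13 (2.62-fold lower, 2.396 to 2.86). Of 17 antioxidant genes the one counted was the peroxisomal catalase ctl-2 (Y54G11A.5, overlapping), which had 98 reads at day 4 against 239 at day 13 (2.25-fold higher, 1.77 to 2.88). The peroxiredoxin prdx-2 (F09E5.15) had 1634 reads at day 4 against 1507 at day 13 (1.17-fold lower, 1.09 to 1.26). Genes of metal and heme handling went both ways. Besides mtl-1, the ferritin ftn-1 (C54F6.14), which stores iron, had 27 reads at day 4 against 71 at day 13 (2.43-fold higher, 1.54 to 3.93), whereas hrg-7 (C15C8.3, overlapping), a secreted factor in heme signalling, had 233 reads at day 4 against 16 at day 13 (15.8-fold lower, 9.51 to 28.1).

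Targets of the insulin pathway factor DAF-16 were higher in 4 and lower in 2 of 12 cases. These shares of 33.3% and 16.7% stand against 8.79% and 11.1% of all genes, and the median was 0.19. Higher were mtl-1, ctl-2, ftn-1 and lea-1 (K08H10.1, overlapping), which is related to proteins that protect dry embryos and had 174 reads at day 4 against 1124 at day 13 (5.96-fold higher, 5.08 to 7.04). Lower were fat-7 and the water channel aqp-1 (F32A5.5, overlapping), with 13 reads at day 4 against 0 at day 13 (at least 4.69-fold lower). Among 13 transcription factors of the intestine and of lifespan, 1 was counted, as higher, which is 7.69% against 8.79% of all genes. With total reads 3 were higher. The gene counted with TMM was xbp-1 (R74.3), which drives the unfolded protein response of the endoplasmic reticulum. It had 378 reads at day 4 against 907 at day 13 (2.21-fold higher, 1.96 to 2.50).

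Peptides of the epidermis were among the groups with most higher genes. Of 31 antimicrobial peptide genes of the nlp, cnc, fip and fipr families, 17 were higher, 5 lower and 9 neither, with a median of 1.64. As a group they made up 0.340% of all reads at day 4 and 1.90% at day 13. The nlp-29 cluster on chromosome V, whose peptides are induced by fungal infection and wounding, was higher as an unbroken block. In their order along the chromosome the cytochrome P450 gene cyp-34A9 and the peptide genes nlp-34, nlp-31, nlp-30, nlp-29, nlp-28 and nlp-27 were 7 neighbours that were all counted as higher, the longest such run found. nlp-27 (B0213.2) had 7864 reads at day 4 against 27518 at day 13 (3.23-fold higher, 3.15 to 3.31). nlp-28 (B0213.3) had 846 reads at day 4 against 3079 at day 13 (3.36-fold higher, 3.11 to 3.63), nlp-29 (B0213.4) had 614 reads at day 4 against 2753 at day 13 (4.14-fold higher, 3.79 to 4.52) and nlp-30 (B0213.5) had 37 reads at day 4 against 127 at day 13 (3.17-fold higher, 2.18 to 4.70). The 6 peptide genes of the block went from 0.221% to 1.58% of all reads, and held most of the difference in share of the group.

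Other epidermal peptides were divided by family. Caenacins were higher in 4 of 8 cases and lower in 0, with cnc-4 (R09B5.9) having 191 reads at day 4 against 3098 at day 13 (14.97-fold higher, 12.9 to 17.4) and cnc-2 (R09B5.3) having 343 reads at day 4 against 809 at day 13 (2.18-fold higher, 1.92 to 2.48). cnc-8 (F41E7.8) had 1402 reads at day 4 against 1131 at day 13 (1.34-fold lower, 1.24 to 1.45) and was not counted. Of 5 fip genes 2 were higher and 2 lower: fip-5 (F41E7.4) had 605 reads at day 4 against 3930 at day 13 (5.996-fold higher, 5.50 to 6.54), and fip-3 (C06E1.5) had 121 reads at day 4 against 8 at day 13 (16.4-fold lower, 8.06 to 38.8). Of 7 fipr genes 3 were higher and 1, fipr-17, lower, and a neighbouring pair of the higher ones, fipr-24 (C37A5.8) with 8 reads at day 4 against 232 at day 13 (26.8-fold higher, 13.4 to 62.7) and fipr-22 (C37A5.2) with 8 reads at day 4 against 64 at day 13 (7.38-fold higher, 3.53 to 17.8), lay in a run of 3 higher genes with C37A5.3. Of the other nlp members of the group, nlp-25 and nlp-32 (F30H5.2) were higher, the latter with 3 reads at day 4 against 31 at day 13 (9.54-fold higher, 2.98 to 48.8), and a further pair was lower. nlp-26 (Y43F8C.2, overlapping) had 136 reads at day 4 against 57 at day 13 (2.58-fold lower, 1.88 to 3.59), and nlp-24 (F35B12.7, overlapping) had 112 reads at day 4 against 45 at day 13 (2.70-fold lower, 1.89 to 3.90). Among genes of the group with at least 10 reads at both ages the median was 0.77 in place of 1.64.

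Cuticle collagens, the other large product of the epidermis, were lower in 27 of 54 cases and higher in 10, with a median of -1.04. All 16 col genes with at least 1000 reads in the pair were lower, while the other collagens held both directions. The col genes counted as lower together went from 3.41% to 1.20% of all reads. col-106 (Y77E11A.15) had 37470 reads at day 4 against 16219 at day 13 (2.50-fold lower, 2.46 to 2.55). col-184 (F15A2.1) had 34864 reads at day 4 against 14083 at day 13 (2.68-fold lower, 2.63 to 2.74), and col-143 (T15B7.3, overlapping) had 18781 reads at day 4 against 2929 at day 13 (6.95-fold lower, 6.68 to 7.22). The adult collagen col-19 (ZK1193.1, overlapping) had 3237 reads at day 4 against 487 at day 13 (7.201-fold lower, 6.54 to 7.94), and col-101 (K02D7.3, overlapping) had 6996 reads at day 4 against 639 at day 13 (11.9-fold lower, 10.9 to 12.9). Among the collagens furthest apart were col-20, col-124 (C24F3.6, overlapping) with 1375 reads at day 4 against 48 at day 13 (31.03-fold lower, 23.3 to 42.3) and col-80 (C09G5.5, overlapping) with 1106 reads at day 4 against 53 at day 13 (22.6-fold lower, 17.2 to 30.4).

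No collagen that was higher had more than 642 reads at day 13. Of 13 genes named dpy, most of which shape the body and not all of which are collagens, 4 were higher and 0 lower. The collagen dpy-14 (H27M09.4) had 29 reads at day 4 against 292 at day 13 (9.29-fold higher, 6.34 to 14.1), dpy-17 (F54D8.1) had 84 reads at day 4 against 334 at day 13 (3.67-fold higher, 2.88 to 4.72) and dpy-5 (F27C1.8) had 5 reads at day 4 against 49 at day 13 (9.05-fold higher, 3.62 to 29.1). Mutants of these genes are short and fat. col-38 (F54C9.4) had 12 reads at day 4 against 69 at day 13 (5.31-fold higher, 2.85 to 10.8). The cuticle list therefore held fewer reads at day 13, while a minor set of its members was higher. Hedgehog-related genes, which act in the epidermis and its molts, were deep enough in 4 cases, and grd-3 (W05E7.1) had 103 reads at day 4 against 14 at day 13 (7.97-fold lower, 4.54 to 15.1) whereas wrt-10 (ZK1290.8) had 1 read at day 4 against 17 at day 13 (15.7-fold higher, 2.46 to 656).

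Contractile proteins of body wall muscle were lower in 8 of 23 cases and higher in 0, with a median of -0.60 (7 lower with total reads). The major myosin heavy chain unc-54 (F11C3.3) had 90 reads at day 4 against 15 at day 13 (6.50-fold lower, 3.74 to 12.1), the largest fold of the list. Of 6 myosin light chain genes named mlc 3 were lower, with mlc-1 (C36E6.3, overlapping) having 46 reads at day 4 against 16 at day 13 (3.11-fold lower, 1.73 to 5.89) and mlc-2 (C36E6.5, overlapping) having 1056 reads at day 4 against 431 at day 13 (2.65-fold lower, 2.37 to 2.98). mlc-3 (F09F7.2) had 319 reads at day 4 against 168 at day 13 (2.06-fold lower, 1.70 to 2.49) and was counted with TMM but not with total reads. The troponin T tnt-2 (F53A9.10) had 33 reads at day 4 against 8 at day 13 (4.47-fold lower, 2.02 to 11.2), and the calponin-like clik-1 (T25F10.6, overlapping) had 125 reads at day 4 against 32 at day 13 (4.23-fold lower, 2.85 to 6.45). Thin-filament actins did not follow, since act-3 (T04C12.4, overlapping) had 172 reads at day 4 against 168 at day 13 (1.11-fold lower, 0.891 to 1.38) and act-2 (T04C12.5) had 105 reads at day 4 against 117 at day 13 (1.03-fold higher, 0.784 to 1.35). Only 2 of a list of pharyngeal genes, not all of them of muscle, were deep enough. Of these, phat-8 (F15A4.6), which is not a muscle gene, was counted, with 98 reads at day 4 against 42 at day 13 (2.53-fold lower, 1.74 to 3.72). The troponin gene tni-4 (W03F8.1, overlapping) had 28 reads at day 4 against 18 at day 13 (1.69-fold lower, 0.900 to 3.23) and was not counted.

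Sperm genes were higher as a class. Of 43 described, 31 were higher, 6 lower and 6 neither, with a median of 2.08, and their share went from 0.0227% to 0.0962% of the reads. Major sperm proteins, which drive the crawling of sperm and signal to oocytes, were higher in 15 of 16 cases. msp-64 (ZK1248.6) had 22 reads at day 4 against 170 at day 13 (7.13-fold higher, 4.56 to 11.7) and msp-78 (T13F2.11) had 38 reads at day 4 against 173 at day 13 (4.20-fold higher, 2.94 to 6.14). Since msp genes are nearly the same in sequence, their single values are uncertain and they are not separate measurements. Sperm genes that are not msp copies went the same way. The sperm chromatin protein spch-1 (C04G2.8) had 47 reads at day 4 against 512 at day 13 (10.1-fold higher, 7.45 to 13.9). Of 8 nspd genes, which are also close copies, 7 were higher, with nspd-1 (ZK484.8) having 30 reads at day 4 against 372 at day 13 (11.4-fold higher, 7.88 to 17.2) and nspd-2 (K07F5.5) having 41 reads at day 4 against 321 at day 13 (7.23-fold higher, 5.21 to 10.3). ssq-1 (K07F5.11) had 179 reads at day 4 against 439 at day 13 (2.26-fold higher, 1.90 to 2.71) and ssp-16 (T27A3.3) had 5 reads at day 4 against 71 at day 13 (13.1-fold higher, 5.36 to 41.6). The nspc genes, grouped here by name with other nematode-specific peptides, did the opposite, with 5 of 9 lower and 0 higher, as for nspc-20 (D1025.4) with 54 reads at day 4 against 3 at day 13 (19.5-fold lower, 6.33 to 97.5).

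Oocyte and germline genes did not follow the sperm genes. Of 59 described, 4 were higher, 3 lower and 52 neither, and the median was -0.31, near that of all genes. The higher share was 6.78% and the lower 5.08%, against 8.79% and 11.1% of all genes. perm-4 (C44B12.5) and perm-2 (C44B12.1, overlapping), which build the permeability barrier of the eggshell, had 29106 reads at day 4 against 35682 at day 13 (1.13-fold higher, 1.11 to 1.15), and 8920 reads at day 4 against 8716 at day 13 (1.11-fold lower, 1.08 to 1.14), respectively. The lower members oma-2 (ZC513.6), pos-1 (F52E1.1) and cbd-1 (H02I12.1), which serve the oocyte and early embryo, were counted with TMM but not with total reads, oma-2 with 178 reads at day 4 against 91 at day 13 (2.12-fold lower, 1.64 to 2.76). Among the higher members htp-3 (F57C9.5), a protein of the meiotic chromosome axis, had 115 reads at day 4 against 251 at day 13 (2.01-fold higher, 1.61 to 2.53), and nos-3 (Y53C12B.3, overlapping) had 3 reads at day 4 against 15 at day 13 (4.62-fold higher, 1.31 to 24.9). Genes of the cell cycle and of DNA replication were higher in 4 and lower in 2 of 42 cases, 9.52% and 4.76% against 8.79% and 11.1% of all genes. The condensin subunits hcp-6 (Y110A7A.1, overlapping) and smc-4 (F35G12.8) were higher, hcp-6 with 236 reads at day 4 against 557 at day 13 (2.18-fold higher, 1.87 to 2.55), and the cyclin cyb-3 (T06E6.2) had 282 reads at day 4 against 146 at day 13 (2.09-fold lower, 1.71 to 2.57). The call of cyb-3 was lost with total reads, TMM on the PY79 pair, DESeq2 size factors and summed rows.

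Histone genes were higher in 11 of 23 cases and lower in 0, with a median of 1.31, and of 0.80 over the 20 with at least 10 reads at both ages. Linker histone genes hil, whose products bind the DNA between nucleosomes, were higher in 5 of 6 cases, and hil-5 (B0414.3) had 454 reads at day 4 against 1330 at day 13 (2.70-fold higher, 2.43 to 3.01) while hil-4 (C18G1.5) had 2783 reads at day 4 against 2623 at day 13 (1.15-fold lower, 1.09 to 1.21). his-24 (M163.3, overlapping), a linker histone, had 49 reads at day 4 against 220 at day 13 (4.14-fold higher, 3.03 to 5.77). Of 16 his genes 6 were higher, among them his-67 (T23D8.5) with 51 reads at day 4 against 186 at day 13 (3.37-fold higher, 2.46 to 4.68) and his-64 (F22B3.1) with 0 reads at day 4 against 31 at day 13 (at least 9.54-fold higher). The replacement histone gene his-72 (Y49E10.6, overlapping) had 502 reads at day 4 against 543 at day 13 (1.002-fold lower, 0.885 to 1.13). Many core histone genes are near-identical copies and their transcripts normally end without a poly(A) tail.

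RNAs of kinds that normally carry no poly(A) tail, which the selection of poly(A) RNA should leave out, were higher at day 13 as a group. Over small nuclear, small nucleolar, ribosomal and transfer RNA genes, 23 of the 25 described were higher and 1 lower, and all genes of these kinds in the table went from 0.0348% to 0.172% of the reads. The genes were taken by biotype, and whether each lacks a tail was not examined. The ribosomal RNA genes include MTCE.7 of the mitochondrial genome, which is also counted with that genome below. All 12 small nuclear RNA genes were higher, with a median of 4.06. Only 5 of them had at least 10 reads at both ages, with a median of 3.77, and 5 had 0 reads at day 4. Of 6 small nucleolar and 3 transfer RNA genes, 1 each had at least 10 reads at both ages, as did all 4 ribosomal RNA genes. The others passed the read filter through 1 age only, so the count of higher genes follows in part from the filter. sup-39 (C15F1.9, overlapping), a U1 gene, had 17 reads at day 4 against 1048 at day 13 (56.9-fold higher, 35.4 to 98.1), and it overlaps mir-1831 on the same strand. Y57G11C.35 (overlapping) had 24 reads at day 4 against 369 at day 13 (14.2-fold higher, 9.39 to 22.4). The 26S ribosomal RNA gene rrn-3.1 (F31C3.9, overlapping) had 1306 reads at day 4 against 3440 at day 13 (2.43-fold higher, 2.28 to 2.59), and the 5.8S gene rrn-2.1 (F31C3.11) had 12 reads at day 4 against 158 at day 13 (12.2-fold higher, 6.77 to 24.02). The transfer RNA gene C36F7.t1 had 2 reads at day 4 against 141 at day 13 (65.1-fold higher, 17.7 to 543). The RNA components of RNase P, rpr-1 (Y48G10A.7, overlapping), and of RNase MRP, mrpr-1 (E04F6.16), chosen after their values were seen, had 30 reads at day 4 against 488 at day 13 (15.02-fold higher, 10.4 to 22.5), and 14 reads at day 4 against 232 at day 13 (15.3-fold higher, 8.93 to 28.4), respectively. The part of a larger carry-over of such RNA in the core histone values was not tested.

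Transcripts of basic cell functions held close to the bulk of genes. None of 31 small ribosomal subunit genes was counted, nor any of 35 translation factors, 32 proteasome subunits or 6 tubulins. Small subunit proteins took 34% of the reads at day 4 and 32.4% at day 13, and large subunit proteins 29.4% and 30.5%. rps-25 (K02B2.5) had 128967 reads at day 4 against 132064 at day 13 (1.06-fold lower, 1.05 to 1.07). Of 47 large subunit genes 1 was counted, rpl-41.2 (F54D7.7) with 1844 reads at day 4 against 807 at day 13 (2.48-fold lower, 2.28 to 2.69). rpl-10 (F10B5.1), among the 5 genes with the largest gain in share of reads, had 67329 reads at day 4 against 85948 at day 13 (1.18-fold higher, 1.17 to 1.19). The elongation factor eef-2 (F25H5.4) had 16695 reads at day 4 against 23154 at day 13 (1.28-fold higher, 1.25 to 1.31), and the tubulin tba-2 (C47B2.3) had 25808 reads at day 4 against 25506 at day 13 (1.10-fold lower, 1.08 to 1.12). With total reads 2 translation factors, 1 tubulin and 1 large subunit gene were higher.

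In energy metabolism the lower shares were near or under the 11.1% of all genes. Of 17 glycolytic genes 1 was lower, the phosphofructokinase pfk-1.1 (Y71H10A.1) with 16 reads at day 4 against 5 at day 13 (3.47-fold lower, 1.21 to 12.1), and the aldolase aldo-2 (F01F1.12, overlapping) had 2919 reads at day 4 against 3206 at day 13 (1.01-fold higher, 0.964 to 1.07). Of 55 respiratory chain subunits encoded in the nucleus 3 were lower, of 27 genes of the citric acid and glyoxylate cycles 3, and none was higher. The complex I subunit nuo-5 (Y45G12B.1, overlapping) had 90 reads at day 4 against 38 at day 13 (2.57-fold lower, 1.74 to 3.85), whereas the cytochrome oxidase subunit cox-4 (W09C5.8) had 3901 reads at day 4 against 4080 at day 13 (1.04-fold lower, 0.991 to 1.08). The mitochondrial genome was near the bulk of genes, with a median of 0.08 over 14 genes, of which 1, the ribosomal RNA gene MTCE.7, was higher. Subunits of the vacuolar proton pump were lower in 4 of 20 cases with TMM and in 1 with total reads. Autophagy genes were lower in 2 of 16 cases, 12.5% against 11.1% of all genes, and lgg-3 (B0336.8), an autophagy conjugation factor, had 67 reads at day 4 against 28 at day 13 (2.59-fold lower, 1.64 to 4.19).

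Stress chaperones were measured at very different depths. The small heat shock protein sip-1 (F43D9.4, overlapping) was among the deepest genes and had 125673 reads at day 4 against 99721 at day 13 (1.37-fold lower, 1.35 to 1.38). hsp-16.2 (Y46H3A.3), which is induced by heat, had 0 reads at day 4 against 23 at day 13 (at least 7.08-fold higher), and the HSP70 copies F44E5.4 and F44E5.5, which share sequence, had 2 reads at day 4 against 22 at day 13 (10.2-fold higher, 2.50 to 89.1), and 1 read at day 4 against 12 at day 13 (11.1-fold higher, 1.64 to 474), respectively. The constitutive chaperones did not differ as far, with hsp-1 (F26D10.3, overlapping) having 3582 reads at day 4 against 5045 at day 13 (1.30-fold higher, 1.25 to 1.36) and hsp-90 (C47E8.5, overlapping) having 14530 reads at day 4 against 16646 at day 13 (1.06-fold higher, 1.03 to 1.08). Of 47 large chaperones and co-chaperones 3 were higher and 2 lower, 6.38% and 4.26% against 8.79% and 11.1% of all genes.

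Signalling peptides were mostly shallow. Of 14 neuropeptide genes 2 were higher and 1 lower, 14.3% and 7.14% against 8.79% and 11.1% of all genes. Among them nlp-39 (C54C8.9) had 928 reads at day 4 against 2242 at day 13 (2.23-fold higher, 2.06 to 2.41) while the intestinal peptide nlp-40 (Y74C9A.2) had 376 reads at day 4 against 396 at day 13 (1.03-fold lower, 0.891 to 1.19). Of 9 insulin-like genes ins-37 (F08G2.6, overlapping) had 60 reads at day 4 against 163 at day 13 (2.51-fold higher, 1.85 to 3.43) and ins-27 (ZC334.11) had 18 reads at day 4 against 8 at day 13 (2.44-fold lower, 1.01 to 6.48). The call of ins-27 was lost with each of the other scalings. The synaptic gene snb-1 (T10H9.4) had 68 reads at day 4 against 89 at day 13 (1.21-fold higher, 0.871 to 1.68).

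Transthyretin-related proteins, a nematode family of secreted proteins, went both ways, with 10 of 34 higher and 7 lower, and a median of 0.41. That is 29.4% and 20.6%, against 8.79% and 11.1% of all genes. With total reads 12 were higher and 4 lower, so that the balance of this family leaned on the scaling. ttr-51 (JC8.8, overlapping) had 420 reads at day 4 against 1208 at day 13 (2.65-fold higher, 2.37 to 2.97) and its neighbour ttr-45 (JC8.14) had 51 reads at day 4 against 298 at day 13 (5.39-fold higher, 3.997 to 7.41). In contrast ttr-44 (C56A3.2, overlapping) had 64 reads at day 4 against 9 at day 13 (7.70-fold lower, 3.81 to 17.6), and ttr-35 and ttr-36, which are next to each other on chromosome X, were both lower with TMM, ttr-36 not with total reads. Astacin metalloproteases, which cut extracellular proteins, were deep enough in 5 cases. nas-9 (C37H5.9) had 163 reads at day 4 against 1064 at day 13 (6.03-fold higher, 5.105 to 7.15) and nas-11 (K11G12.1, overlapping) had 70 reads at day 4 against 351 at day 13 (4.63-fold higher, 3.57 to 6.07), whereas nas-20 (T11F9.3) had 28 reads at day 4 against 10 at day 13 (3.03-fold lower, 1.43 to 6.999) and nas-3 (K06A4.1) had 12 reads at day 4 against 1 at day 13 (13-fold lower, 1.92 to 556). The Skp1-related skr genes, parts of ubiquitin ligases, were lower in 8 of 16 cases and higher in 1. skr-7 (Y47D7A.1) had 1927 reads at day 4 against 500 at day 13 (4.18-fold lower, 3.78 to 4.62) and skr-10 (Y105C5B.13) had 693 reads at day 4 against 105 at day 13 (7.15-fold lower, 5.82 to 8.86), and skr-13, skr-9 (C52D10.7) and skr-8 formed a run of 3 lower neighbours on chromosome IV. The pud and drd genes, with 4 described, held the lowest median of all groups, -5.68. Lower were pud-3, pud-4 and drd-50, all with at most 3 reads at day 13, and drd-10 (C33G8.3, overlapping) had 25 reads at day 4 against 68 at day 13 (2.51-fold higher, 1.57 to 4.15).

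**Figure D3:**
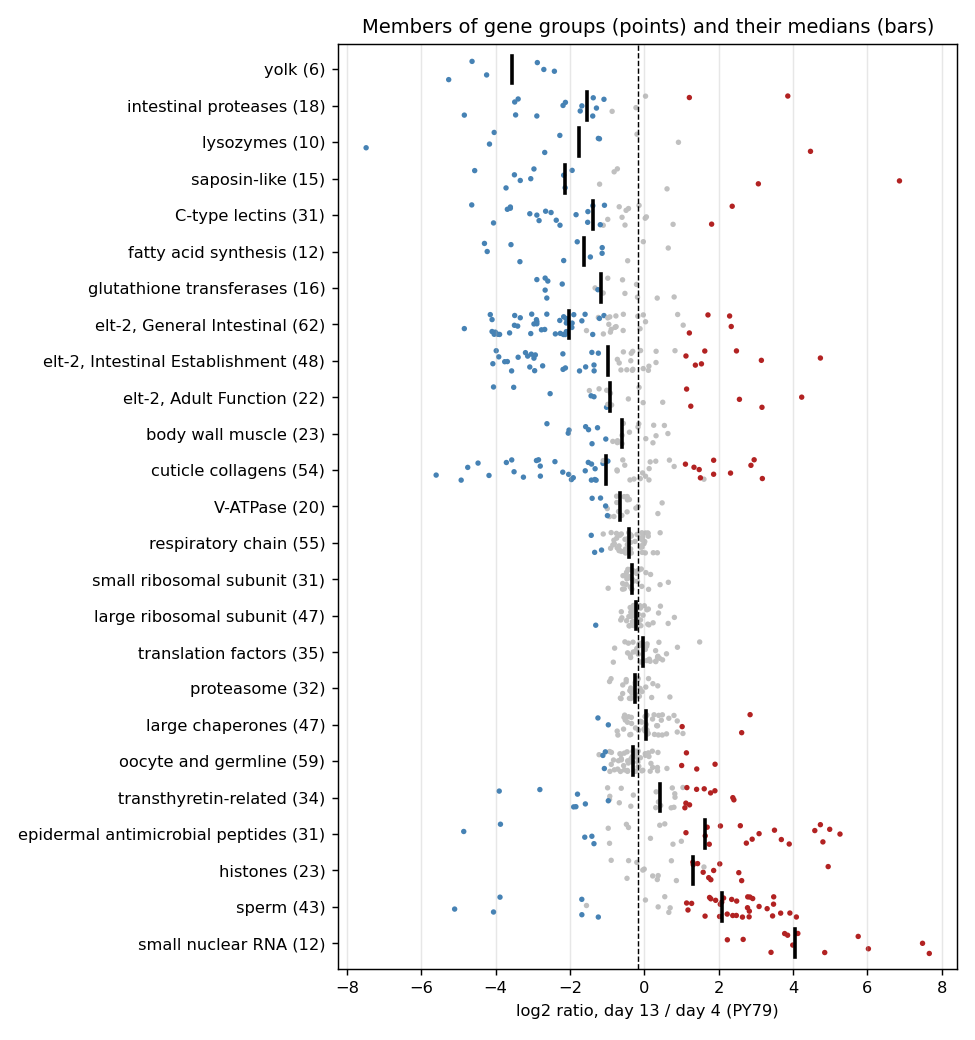
Each point is a gene of the group named on the left, with the number described in parentheses, and its x position is the log2 ratio of day 13 to day 4 on PY79; red points were higher, blue lower and grey neither, the black bar is the group's median and the dashed line the median of all genes at -0.18. Of the groups drawn, the medians run from -3.56 for yolk to 4.06 for small nuclear RNA, and the ribosomal, proteasome and translation groups lie close to the dashed line.

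The counted genes were unevenly placed in the genome. On the X chromosome 23.97% of 484 genes were lower, against 7.18% to 14.3% on the autosomes, while the higher share on X was 9.71% against 5.83% to 11.1%. With total reads the lower share on X was 19.01%, against 3.57% to 10.4% on the autosomes. It was 29.1% for genes of 100 or more reads in the pair, against 4.42% to 16.1%. Among genes outside all groups above it was 17.3%, against 6.13% to 10.4%. Of the described genes with at least 10 reads on OP50, 28.6% of those on X were lower on OP50, against 13.7% to 19.7% on the autosomes. Genes on X were shallower, with a median of 37 reads in the pair against 57 to 65 on the autosomes, and the part of depth in the X share was not tested. Of 138 pairs of adjacent genes that were both counted, 102 shared the direction and 36 did not. Since 44.3% of all counted genes were higher and the rest lower, many pairs share a direction whatever their place. The share that this mix alone would give was not worked out. There were 11 runs of at least 3 such neighbours, 6 higher and 5 lower, which held 37 genes. Besides the nlp-29 block, a run on chromosome IV held dct-7 (F15E6.8) with 93 reads at day 4 against 1604 at day 13 (15.9-fold higher, 12.9 to 19.8), F15E6.4 with 841 reads at day 4 against 5196 at day 13 (5.70-fold higher, 5.30 to 6.14) and F15E6.10 (overlapping) with 29 reads at day 4 against 271 at day 13 (8.63-fold higher, 5.87 to 13.1). Overlap of neighbouring genes and gene families in tandem were not separated from these counts.

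**Figure D4:**
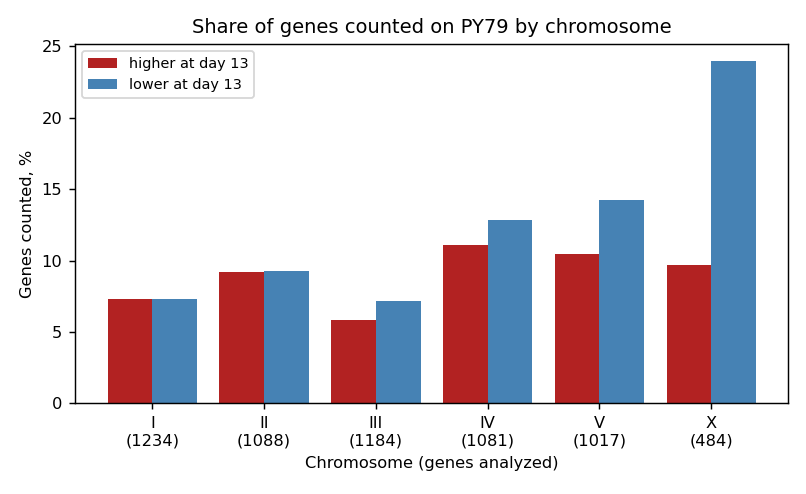
Bars give the percentage of the genes described on each chromosome (number in parentheses) that were higher (red) or lower (blue) at day 13 on PY79, with 1 library per age. The blue bar of the X chromosome stands at 23.97% and that of chromosome V, the highest autosome, at 14.3%.

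Outside all groups lay 380 of the higher and 446 of the lower genes. By change in share of reads, the leading pair was F56D6.8, which is uncharacterized, and dct-8, named as a DAF-16-controlled gene, neighbours that together went from 0.209% to 1.99% of all reads. F08B12.4, chosen like the rest of this paragraph after its values were seen, had 3318 reads at day 4 against 10698 at day 13 (2.98-fold higher, 2.86 to 3.10). The cystatin cpi-1 (K08B4.6), an inhibitor of cysteine proteases, had 420 reads at day 4 against 1533 at day 13 (3.37-fold higher, 3.02 to 3.76). The long non-coding RNA tts-1 (F09E10.11), known from long-lived mutants, had 556 reads at day 4 against 1377 at day 13 (2.29-fold higher, 2.07 to 2.53). On the lower side Y119D3B.21 had 13639 reads at day 4 against 4762 at day 13 (3.10-fold lower, 3.002 to 3.21), and R02F2.1 had 9016 reads at day 4 against 2350 at day 13 (4.16-fold lower, 3.97 to 4.35). The tyramine beta-hydroxylase tbh-1 (H13N06.6, overlapping), which makes octopamine, had 271 reads at day 4 against 118 at day 13 (2.49-fold lower, 1.997 to 3.12).

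The same ages on E. coli OP50 were measured in a pair of libraries that shares none with the PY79 pair, and 6006 of the 6132 genes had at least 10 reads there at either age. Of these 6006, 12.9% were higher and 16.5% lower at day 13 on OP50. Of the 523 genes higher on PY79 among them, 265 (50.7%) were higher and 55 (10.5%) lower on OP50, and of the 634 genes lower on PY79, 267 (42.1%) were lower and 26 (4.10%) higher. Seen from OP50, 34.1% of its higher and 26.97% of its lower genes were counted in the same direction on PY79. The OP50 libraries were deeper, with 28650595 and 28552961 reads, so that more genes can pass the interval there. The 31 sperm genes higher on PY79 were all higher on OP50, and 8 of 11 histone genes were. Of 13 lower proteases 8, and of 27 lower collagens 21, were lower on both foods, and of the 17 higher epidermal peptides 7 were higher on both. Of the 31 epidermal peptides described 25 had at least 10 reads on OP50, and of the 18 proteases 17. Members under this number could not be counted on OP50, and the 17 and the 13 were not reduced for them.

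Counted differences in opposite directions were held by 81 genes, and 28 of them had at least 100 reads in both pairs. The difference between the foods was not tested, since each group has 1 library. skr-9 (C52D10.7) had 736 reads at day 4 against 179 at day 13 (4.45-fold lower, 3.78 to 5.27) on PY79, and 3318 against 5545 reads on OP50 (2.08-fold higher, 1.99 to 2.17). The transthyretin-related ttr-2 (K03H1.4) had 999 reads at day 4 against 2307 at day 13 (2.13-fold higher, 1.98 to 2.30) on PY79, and 24031 against 5234 reads on OP50 (3.69-fold lower, 3.58 to 3.798). lon-1 (F48E8.1), an epidermal protein that limits body length, had 426 reads at day 4 against 973 at day 13 (2.11-fold higher, 1.88 to 2.37) on PY79, and 1672 against 357 reads on OP50 (3.76-fold lower, 3.35 to 4.23). Among genes counted on PY79 and not on OP50, the lysozyme lys-4 had 45 against 31 reads on OP50.

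**Figure D5:**
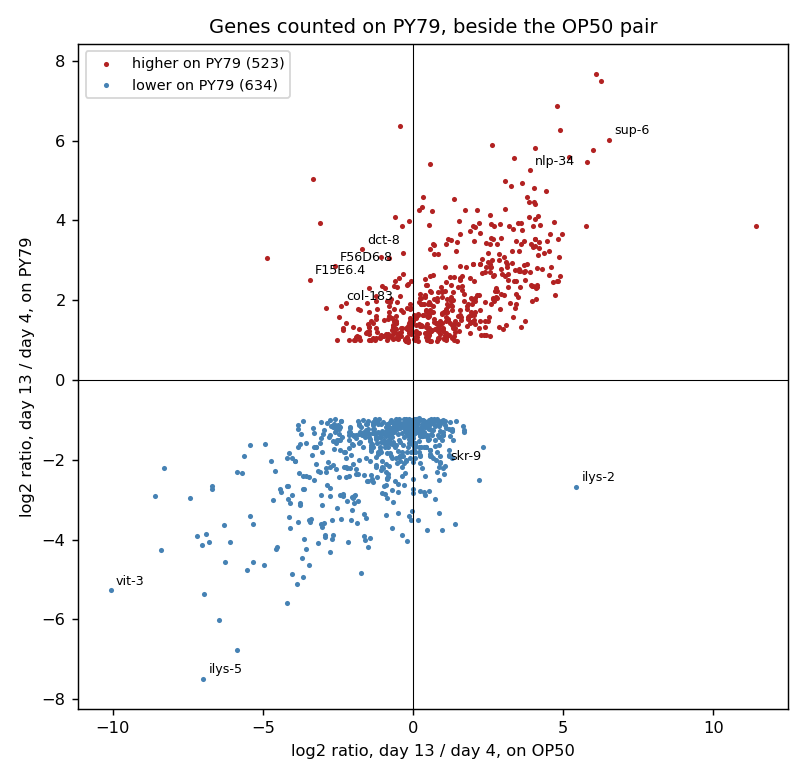
Each point is a gene counted as higher (red, 523) or lower (blue, 634) at day 13 on PY79 that also had at least 10 reads on OP50, with the log2 ratio of day 13 to day 4 on OP50 on the x axis and on PY79 on the y axis. Of the red points 265 were counted as higher and 55 as lower on OP50, and ilys-2, F56D6.8, dct-8 and F15E6.4 are labelled among the genes that differ in direction.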

How the data were processed

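RNA of whole N2 animals was enriched for poly(A) with OligoTex beads and sequenced from the 3' end (3SEQ). The authors deposited a table of raw read counts per transcript, not normalized. Bowtie 0.12.7 is named in the submitters' processing notes, while no source used here gives the genome build, annotation, counting tool or strand setting. Reads without molecular identifiers include PCR copies.

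The table held 24775 transcript rows of 17096 genes, and 2 rows that name no gene held 0 reads. Of the genes, 12749 had 1 row and 4347 had more, of which the row with most reads over the 4 libraries was taken. Names, biotypes, chromosomes, neighbours and overlaps came from Ensembl release 115, in which 16760 genes were matched. Counts were scaled with TMM in edgeR 4.0.16 (R 4.3.3), and ratios, exact intervals (scipy 1.17.1) and figures were made in Python 3.11.15. The log2 ratio uses a prior count of 1, so it understates differences of shallow genes. With 1 library per group no count test was run, and no p-value is given. The ratio and interval steps were tested on simulated data.

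Genes were placed in 53 lists by name pattern, biotype or, for elt-2-regulated genes, the membership given by the study. The members and lists were chosen with earlier results of these data known, and the pattern for metals and heme was corrected after it was seen to catch an unrelated gene. Named genes were the 15 higher and 15 lower by the interval bound nearest to 1, the 5 with the largest gain and the 5 with the largest loss in share of reads, up to 4 counted and 2 uncounted members of each list with most reads, elt-2, the 10 deepest opposite to OP50, and up to 4 per direction found at 1 age only. Any other gene was chosen after its values were seen. A planned count of GATA motifs in promoters was not run, as no promoter sequences were used here. Alternatives were total reads, DESeq2 1.42.0 size factors, TMM on the PY79 pair, other read filters, all rows of a gene summed, and a 4-fold threshold.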

Additional observations from a re-analysis of the deposited data

Results flagged for a closer look

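Each of the following genes differed in opposite directions between day 4 and day 13 on the 2 foods, was counted on both, and was among the deepest of the 81 such genes; with 1 library per group the difference between the foods was not tested. The log2 ratio of F56D6.8 was 2.86 on PY79 and -2.61 on OP50, and that of its neighbour dct-8 was 3.28 and -1.71. For F15E6.4 the values were 2.51 on PY79 and -3.44 on OP50. The lysozyme ilys-2 had -2.68 on PY79 and 5.44 on OP50. The transthyretin-related ttr-2 had 1.09 and -1.88, and the RNA helicase ddx-23 had 1.31 and -1.25, in the same order. The epidermal gene lon-1 had 1.07 on PY79 and -1.91 on OP50, the caenacin cnc-2 had 1.12 and -1.07, and the collagen col-183 had 1.86 and -2.40. The Skp1-related skr-9 had -2.15 on PY79 and 1.06 on OP50.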

How the results depend on the processing

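The number of higher genes was 539 and that of lower genes 678 with the settings used above. With at least 100 reads in the pair 190 were higher and 206 lower, with at least 10 reads at both ages 282 and 404, and with at least 4-fold 282 and 269, each of which tests fewer genes or a larger fold. Total reads in place of TMM gave 445 lower genes, while the 726 higher genes with total reads and the counts with DESeq2 size factors, TMM on the PY79 pair, no filter and summed rows stayed within 1.5 times. The balance still turned with TMM on the PY79 pair, which gave 672 higher and 506 lower genes. The following covers the 266 genes named by rule, not those chosen after their values were seen. None of them that was counted reversed its direction. The other scalings moved ratios by too little to reverse a 2-fold difference, so only summed rows could have done so. Of the 266 genes 178 were counted, and total reads took away 20 of the lower calls and 0 of the higher, and summed rows 5 calls. Total reads moved every ratio upward, so that no higher call could be taken away by them. Of the 266 genes 78 overlap another gene, 20 of them on the same strand. No paired analysis was possible because each group has 1 library. Nothing measures the spread between samples, and genes with few reads can be counted only at large folds.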
